A study of Mus musculus with 49 samples.

Results

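The lysosomal genes described here encode the acid hydrolases of the lysosome, the lipid-handling proteins that work beside them, proteins of the lysosomal membrane and progranulin. The set was a list of 39 gene symbols, and its members were found through the gene symbols of the array's probe sets. Of the 39 genes, 35 had at least 1 probe set (60 probe sets in all), out of 11807 genes and 22626 probe sets in the whole series, while no probe set carried the symbol of Ctso, Arsb, Neu1 or Idua alone in the platform table, and probe sets with several symbols were not read. Each gene was read from its brightest probe set over all arrays, since 16 of the 35 had several.

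The arrays came from female mice aged 6.1 months, from which the cell layers of the hippocampal subfields CA1, CA3 and dentate gyrus (DG) had been cut out of cresyl violet stained sections by laser capture microdissection. rTg4510 mice carried 2 transgenes, human tau with the P301L mutation under a tetracycline-responsive element (TRE-htau, from FVB/N breeders) and the tetracycline-controlled transactivator tTA under the CaMKIIα promoter (from 129S6 breeders), which is active in excitatory forebrain neurons. tTA littermates carried the transactivator alone and DN littermates carried neither transgene, so rTg4510 against tTA sets mutant tau and the insertion of its transgene against mice that also hold tTA. In CA1 there were 5 rTg4510, 5 tTA and 6 DN arrays, in CA3 6, 5 and 5, and in DG 6, 5 and 6, 49 arrays of 17 mice in all with the mouse as the replicate. Mice with the tau transgene and no tTA were not analysed here.

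Lysosomes break down proteins, glycans and lipids that reach them by endocytosis, phagocytosis or autophagy. Most of their soluble enzymes are made as precursors, tagged with mannose 6-phosphate and sorted from the Golgi, while highly glycosylated membrane proteins such as Lamp1 and Lamp2 line the organelle and a proton pump keeps it acidic. In the brain all cell types have lysosomes, microglia and macrophages are rich in them, and inherited loss of many of these genes causes storage disease, often with neurodegeneration. A transcription factor family around Tfeb binds a palindromic promoter element at many lysosomal genes.

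Values are log2 expression from RMA, so differences are on the log2 scale, and a level can be compared between groups for 1 probe set but not between genes. Array medians lay between 4.95 and 5.06, and a gene is called dim where its mean over all arrays is below 5.04, the median over probe sets. This holds for Lgmn, Cln3, Ctsf, Manba, Galc, Ctsh, Gusb and Naglu. Markers of the captured neurons lay where the labels put them: in DN mice the CA1 pyramidal list (3 genes) averaged 9.43 in CA1, against 5.37 in CA3 and 6.06 in DG, the CA3 list (4 genes) averaged 8.16 in CA3, against 5.94 in CA1 and 6.05 in DG, and the dentate granule list (6 genes) averaged 7.87 in DG, against 5.52 in CA1 and 4.05 in CA3. The median correlation of an array with the others of its group lay between 0.976 and 0.994, and DN arrays had the highest ones.

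In CA1 of rTg4510 mice, 20 of the 35 lysosomal genes were higher than in tTA mice and 0 were lower. Over all probe sets the calls were 6.01% higher and 4.62% lower (limma, Benjamini-Hochberg adjusted p below 0.05 over all probe sets). The median difference of the 35 genes was 0.61, against −0.03 over all probe sets, and 31 of them had a positive difference. At an unadjusted p below 0.05 there were 25 higher and 0 lower, against 12% and 12.5% of all probe sets, and Fisher's least significant difference test called 19 higher and 0 lower, against 4.73% and 3.78%. In CA3 and in DG the same comparison called 0 of the 35.

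**Figure D1:**
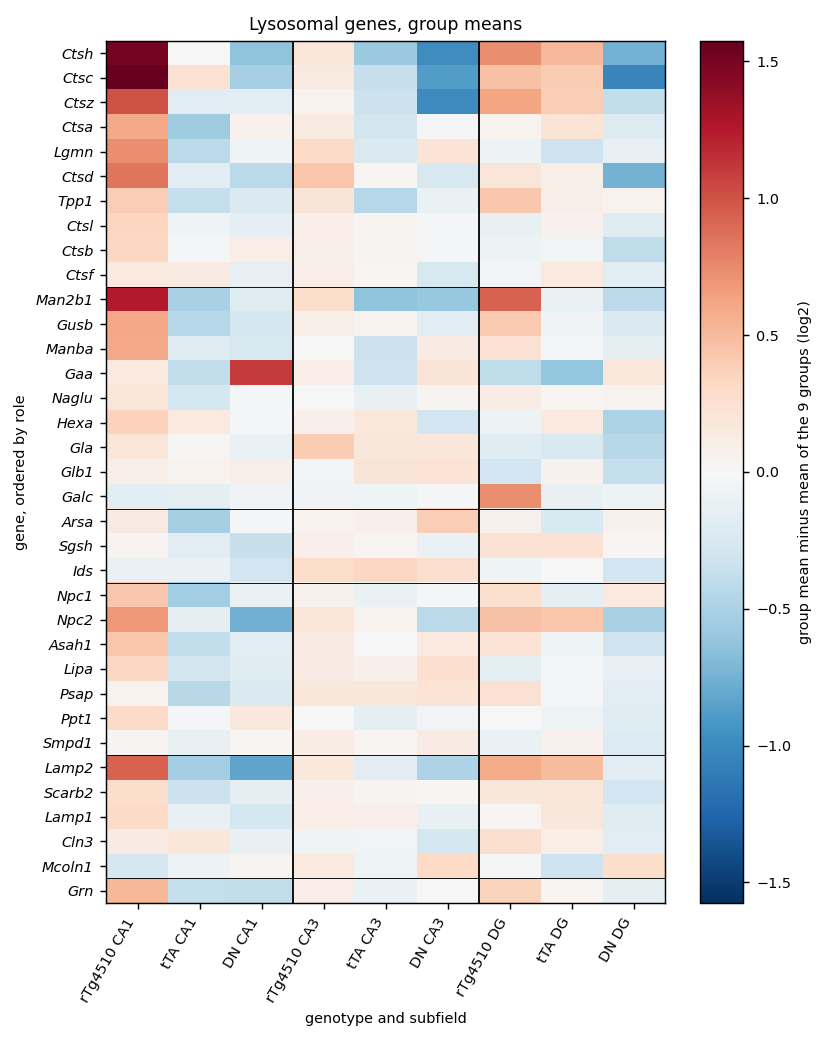
Group means of the 35 lysosomal genes, drawn as the mean of each genotype and subfield minus the gene's mean over the 9 groups (log2 colour scale, genes ordered by role, rTg4510 left of tTA left of DN within each subfield). The rTg4510 CA1 column is the reddest for most proteases, for Man2b1, Npc2, Lamp2 and Grn, while Gaa is reddest in DN CA1.

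Of the 10 proteases measured, 7 were higher in rTg4510 CA1 and 0 lower, with a median difference of 1.08. Ctsh, the aminopeptidase cathepsin H, read 6.33, 4.60, 5.17, 5.24 and 6.03 in rTg4510 CA1, against 4.24, 4.73, 3.74, 3.46 and 3.61 in tTA CA1 and a lowest, median and highest value of 2.90, 3.38 and 3.73 in DN CA1. Only the rTg4510 array at 4.60, from mouse4549, lay within the tTA range, and no rTg4510 array lay within the DN range. The difference from tTA was 1.51 ± 0.30 (SE, limma adjusted p = 0.00448), or 2.86-fold. Ctsc, cathepsin C, the dipeptidyl peptidase that activates granule serine proteases in immune cells, read 7.94, 6.59, 7.19, 7.42 and 7.96 in rTg4510 CA1, against 6.72, 6.196, 5.22, 5.80 and 6.46 in tTA CA1 and 4.78, 5.18 and 6.12 (lowest, median, highest) in DN CA1. Again the array of mouse4549 was the lowest of the rTg4510 group and the 1 that lay below the highest tTA array, and the difference was 1.34 ± 0.32 (adjusted p = 0.0125).

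Ctsz, the carboxypeptidase cathepsin Z (also called X), read 10.19, 9.60, 9.39, 9.88 and 10.19 in rTg4510 CA1, against 8.35, 8.80, 8.80, 8.83 and 8.62 in tTA CA1 and 8.30, 8.65 and 8.96 in DN CA1 (lowest, median, highest). Every rTg4510 array was above every tTA and DN array, while the tTA and DN ranges overlapped. The difference from tTA was 1.17 ± 0.16 (adjusted p = 0.000596). Its other 2 probe sets gave 1.20 and 0.997 and were both called.

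Ctsd, cathepsin D, the main lysosomal aspartic protease, read 8.96, 8.31, 8.28, 8.92 and 9.13 in rTg4510 CA1, against 7.80, 7.40, 7.69, 7.79 and 7.81 in tTA CA1 and 7.26, 7.40 and 7.80 in DN CA1. The groups did not overlap between rTg4510 and either other genotype, and the difference from tTA was 1.02 ± 0.16 (adjusted p = 0.00122). Ctsa, the carboxypeptidase that also protects neuraminidase and beta-galactosidase in a complex, read 6.65, 5.68, 6.60, 6.81 and 6.81 in rTg4510 CA1, against 5.68, 5.47, 4.71, 5.26 and 5.65 in tTA CA1 and 5.73, 6.01 and 6.27 in DN CA1. The array of mouse4549 lay just below the highest tTA array and the other 4 lay above all tTA and DN arrays. Its difference from tTA was 1.16 ± 0.21 (adjusted p = 0.00326), and its difference from DN was 0.53 ± 0.21 (adjusted p = 0.0739), with DN between rTg4510 and tTA.

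Ctsb, cathepsin B, among the brightest of the set, read 10.37, 9.77, 10.26, 10.41 and 10.38 in rTg4510 CA1, against 9.93, 9.95, 9.81, 9.87 and 9.81 in tTA CA1 and 9.85, 9.99 and 10.16 in DN CA1. The array of mouse4549 was below every tTA array and the other 4 rTg4510 arrays were above them all. The difference of 0.36 ± 0.11 (adjusted p = 0.0466) was the smallest among the called genes, it was lost when any 1 of 9 of the 10 arrays was left out (all but mouse4549), and the 3 other Ctsb probe sets, at 0.45 to 0.69, were not called. Tpp1, the tripeptidyl peptidase lost in a form of Batten disease, averaged 7.26 ± 0.30 in rTg4510 CA1 and 6.50 ± 0.30 in tTA CA1 (SD, n = 5 each), a difference of 0.76 ± 0.15 (adjusted p = 0.00467). Ctsl, Lgmn and Ctsf, 2 cysteine cathepsins and the asparagine endopeptidase legumain, were not called, with differences of 0.41 ± 0.15, 1.14 ± 0.38 and 0.01 ± 0.21, and Lgmn had the widest error of the set.

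**Figure D2:**
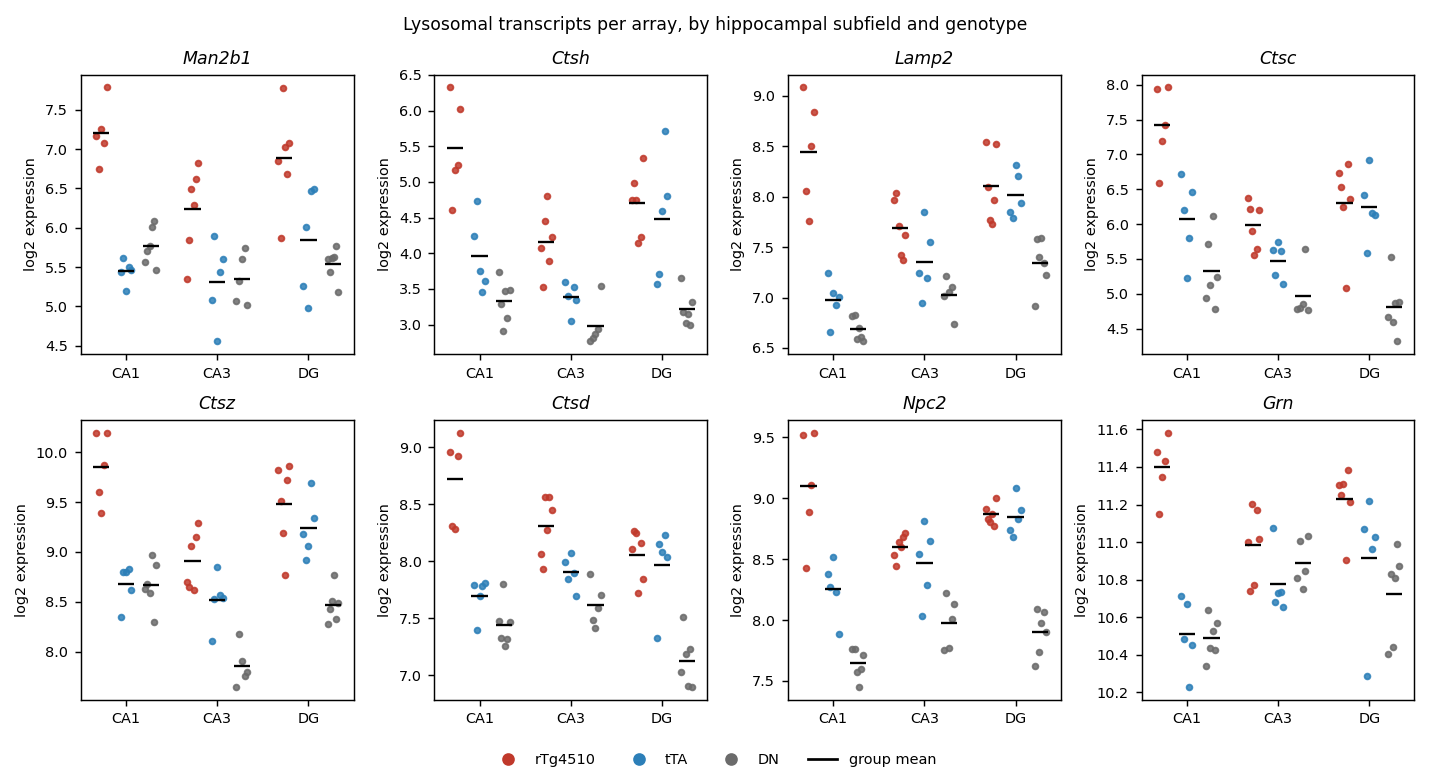
Log2 expression on each array (points) and group means (bars) for 8 lysosomal genes in CA1, CA3 and DG, with rTg4510 in red, tTA in blue and DN in grey. In CA1 the rTg4510 points of Man2b1, Lamp2, Ctsz, Ctsd and Grn lie above all tTA points, and in DG the rTg4510 and tTA means of Ctsz, Ctsd, Npc2 and Lamp2 lie above the DN means.

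Among the 9 glycosidases, 4 were higher in rTg4510 CA1 and 0 lower (median difference 0.47). Man2b1, the lysosomal alpha-mannosidase that trims N-glycans, had the largest difference of the 35 genes. It read 7.16, 6.75, 7.25, 7.08 and 7.79 in rTg4510 CA1, against 5.44, 5.62, 5.20, 5.501 and 5.47 in tTA CA1 and 5.46, 5.73 and 6.08 (lowest, median, highest) in DN CA1. The 5 rTg4510 arrays stood above all others of CA1, and the difference from tTA was 1.76 ± 0.16 (adjusted p = 2.64e-05), or 3.38-fold.

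Gusb, beta-glucuronidase, dim on these arrays, read 4.53, 4.76, 4.68, 3.97 and 4.64 in rTg4510 CA1, against 3.34, 3.47, 3.24, 3.49 and 3.81 in tTA CA1 and 3.35, 3.73 and 3.87 in DN CA1. The groups did not overlap, with mouse4653 closest to the tTA arrays, and the difference was 1.05 ± 0.16 (adjusted p = 0.000819). The other Gusb probe set, also dim, gave 0.65 and was not called (limma adjusted p = 0.0974). Manba, beta-mannosidase, differed by 0.79 ± 0.19 (adjusted p = 0.0133) and Naglu, a heparan sulfate glucosaminidase, by 0.47 ± 0.13 (adjusted p = 0.0251), both dim, and the Naglu call was lost without either of 2 rTg4510 arrays (mouse4535 and mouse4600) or any of 3 tTA arrays (mouse4570, mouse4626 and mouse4637).

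The other 5 glycosidases were not called in this comparison. Hexa, the alpha subunit of beta-hexosaminidase, differed by 0.20 ± 0.16, Gla, alpha-galactosidase A, by 0.17 ± 0.21, Glb1, beta-galactosidase, by 0.03 ± 0.16 and Galc, galactocerebrosidase, by −0.02 ± 0.22. Gaa, the acid alpha-glucosidase that degrades lysosomal glycogen, differed by 0.54 ± 0.19 (adjusted p = 0.0798) and passed the threshold without the array of rTg4510 mouse4549 or of tTA mouse4570. Of the 3 sulfatases, Arsa, arylsulfatase A, which degrades sulfatide, was higher in rTg4510 CA1 by 0.67 ± 0.16 (adjusted p = 0.0141), and the sulfatases of heparan sulfate breakdown differed by 0.21 ± 0.12 (Sgsh) and −0.00 ± 0.12 (Ids).

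Of the 7 lipid-handling genes, 4 were higher in rTg4510 CA1 and 0 lower, all 7 differences were positive, and their median was 0.62. Npc2, the soluble cholesterol carrier of the lysosome, read 9.52, 8.43, 8.88, 9.11 and 9.53 in rTg4510 CA1, against 8.38, 8.27, 8.52, 8.23 and 7.89 in tTA CA1 and 7.45, 7.66 and 7.77 in DN CA1. The levels were stepped, with 1 rTg4510 array (mouse4549) inside the tTA range and all tTA arrays above all DN arrays. The difference between rTg4510 and tTA was 0.84 ± 0.18 (adjusted p = 0.00683), and its other probe set gave 0.89 and was called too.

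Npc1, the membrane protein that takes cholesterol from Npc2, averaged 7.59 ± 0.19 in rTg4510 CA1, 6.61 ± 0.46 in tTA CA1 (SD, n = 5 each) and 7.06 ± 0.20 in DN CA1 (n = 6), with the lowest rTg4510 array at 7.45 and the highest tTA array at 7.05. The difference from tTA was 0.98 ± 0.18 (adjusted p = 0.0029). Asah1, acid ceramidase, differed by 0.82 ± 0.14 (adjusted p = 0.0019) with no overlap, and Lipa, lysosomal acid lipase, by 0.62 ± 0.15 (adjusted p = 0.0154). The other Lipa probe sets gave 0.46 and, in a dim one, 0.06, neither called. Psap, the precursor of the saposins, differed by 0.49 ± 0.18 (adjusted p = 0.0935) in its brightest probe set and by 0.53 (adjusted p = 0.0217) in its other, Ppt1, palmitoyl-protein thioesterase, by 0.34 ± 0.12, and Smpd1, acid sphingomyelinase, by 0.16 ± 0.15.

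Of the 5 membrane genes 3 were higher in rTg4510 CA1. Lamp2, which also serves chaperone-mediated autophagy and autophagosome fusion, read 9.09, 8.05, 7.76, 8.50 and 8.84 in rTg4510 CA1, against 7.24, 6.66, 7.04, 6.93 and 7.003 in tTA CA1 and 6.57, 6.66 and 6.83 in DN CA1. The rTg4510 arrays stood apart from both other genotypes, the difference from tTA was 1.47 ± 0.20 (adjusted p = 0.000441), and the 2 other Lamp2 probe sets gave 1.52 and 1.53, both called. Lamp1, its abundant relative and among the brightest of the set, read 10.76, 10.39, 10.78, 10.92 and 10.89 in rTg4510 CA1, against 10.27, 10.37, 10.30, 10.26 and 10.39 in tTA CA1 and 9.997, 10.16 and 10.38 in DN CA1. Here 4 rTg4510 arrays lay above all tTA and DN arrays while mouse4549 lay level with the highest tTA array, and the difference was 0.43 ± 0.10 (adjusted p = 0.0144). Scarb2, the receptor that carries beta-glucocerebrosidase to lysosomes, differed by 0.61 ± 0.14 (adjusted p = 0.00916) with no overlap, whereas the calcium channel Mcoln1 (−0.20 ± 0.25) and Cln3 (−0.05 ± 0.12), the protein lost in juvenile Batten disease, were not called.

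Grn, progranulin, a secreted glycoprotein that is cut into granulins in lysosomes and whose human gene is mutated in a form of frontotemporal dementia, read 11.48, 11.15, 11.34, 11.43 and 11.58 in rTg4510 CA1, against 10.71, 10.48, 10.67, 10.23 and 10.45 in tTA CA1 and 10.34, 10.48 and 10.64 in DN CA1. All 5 rTg4510 arrays were above all other CA1 arrays, and tTA and DN shared a range. The difference from tTA was 0.89 ± 0.10 (adjusted p = 0.00019). The other Grn probe set gave 1.34 and was called too, but in it tTA was called lower than DN (−0.50, limma adjusted p = 0.037). In all, the rTg4510 and tTA arrays of CA1 did not overlap for 9 of the 35 genes (Ctsd, Ctsz, Gusb, Man2b1, Asah1, Npc1, Lamp2, Scarb2 and Grn), each higher in rTg4510, where 3.39% of all probe sets were higher and 2.93% lower without overlap. Of the 20 calls, 18 were kept whichever rTg4510 or tTA array of CA1 was left out, the exceptions being Ctsb and Naglu. The DN arrays of CA1, part of the same model, were not left out for this count. The model of only these 2 genotypes called 13 members higher, against 2.86% of all probe sets, and so did, against 3.33%, the model with the ratio of the 3′ to the 5′ Actb probe set, a measure of RNA quality, as a covariate. That log2 ratio ran from −0.55 to −0.38 in rTg4510 CA1 and from −0.92 to −0.47 in tTA CA1, and the 7 genes that lost their calls with it were Ctsb, Ctsc, Manba, Naglu, Arsa, Lipa and Lamp1. The median difference of the 35 genes was 0.61 in the model of these 2 genotypes and 0.58 with the covariate.

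**Figure D3:**
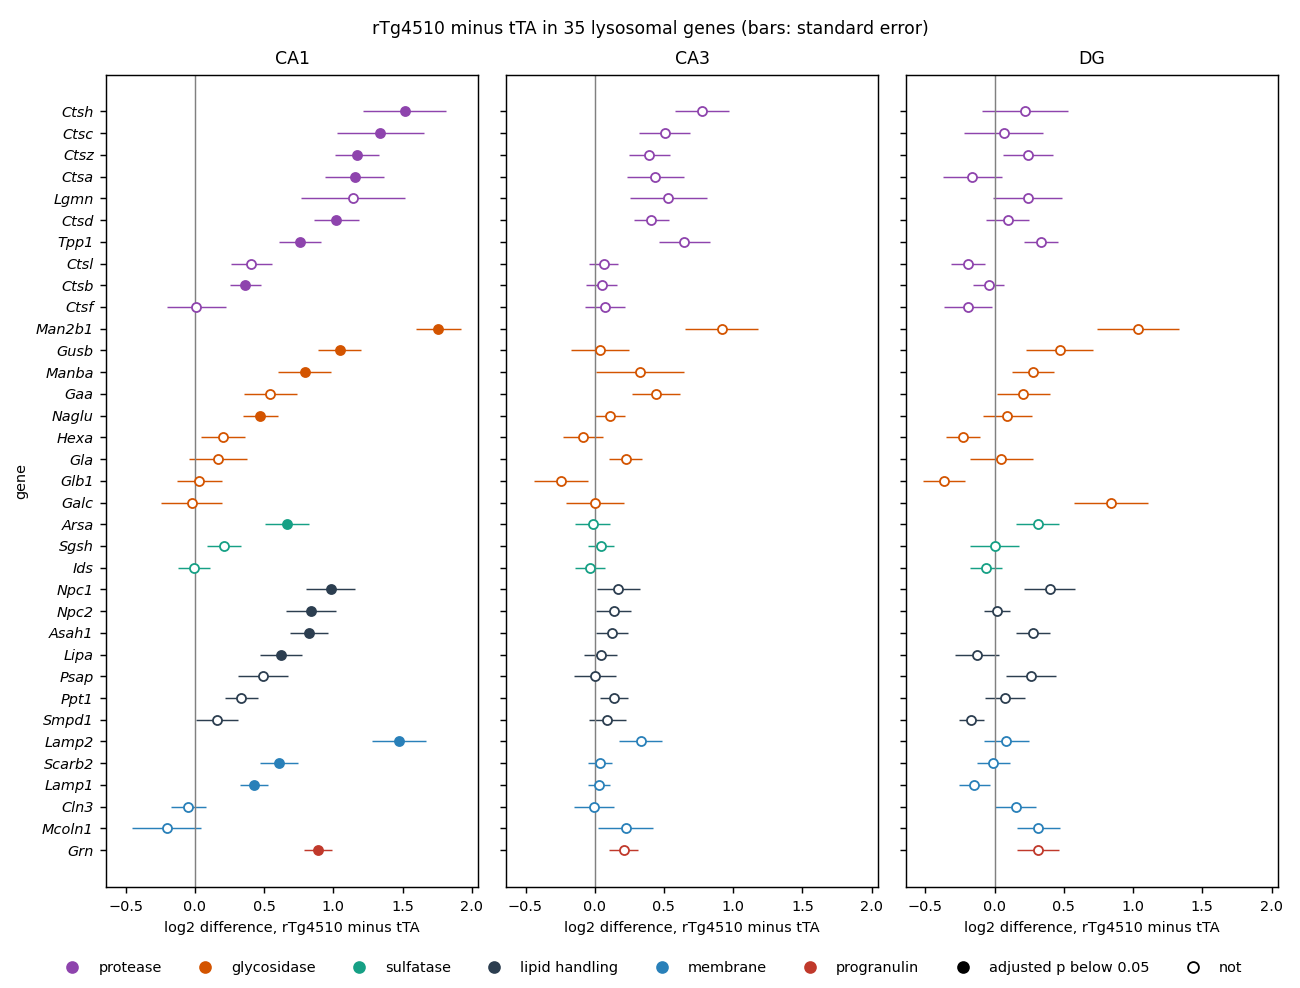
Difference in log2 expression, rTg4510 minus tTA, for the 35 lysosomal genes in CA1, CA3 and DG (points, with the standard error as bars), coloured by role and filled where the adjusted p was below 0.05. The 20 filled points are all in CA1 and all to the right of 0.

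Markers of other cells moved in the same comparison. In CA1, 13 of the 18 microglial markers measured were higher in rTg4510 than in tTA (median difference 1.02) and 0 were lower, and so were 9 of 12 astrocyte, 4 of 9 oligodendrocyte and 4 of 10 endothelial markers. The 5 microglial markers not called were Itgam (0.13), Trem2 (0.17), P2ry12 (0.12), Fcrls (0.30) and Tmem119 (−0.44). The mean of the microglial list ran from 6.17 to 7.09 over the rTg4510 arrays, from 5.29 to 5.72 over the tTA arrays and from 4.78 to 5.11 over the DN arrays, without overlap. Of the CA1 pyramidal markers 3 of 3 were lower in rTg4510 (median −1.48), and of 10 general neuronal markers 0 were called, with 1 higher and 2 lower at an unadjusted p below 0.05. The mean of the 35 lysosomal genes was 7.39, 6.98, 7.20, 7.40 and 7.52 in the rTg4510 CA1 arrays, whose microglial means were 7.02, 6.25, 6.17, 6.61 and 7.09 in the same order of mice, so mouse4549 was lowest in the first and next to lowest in the second. In such captures fewer cells of a type and less RNA per cell cannot be told apart, and the part of these markers in the lysosomal differences was not tested.

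**Figure D4:**
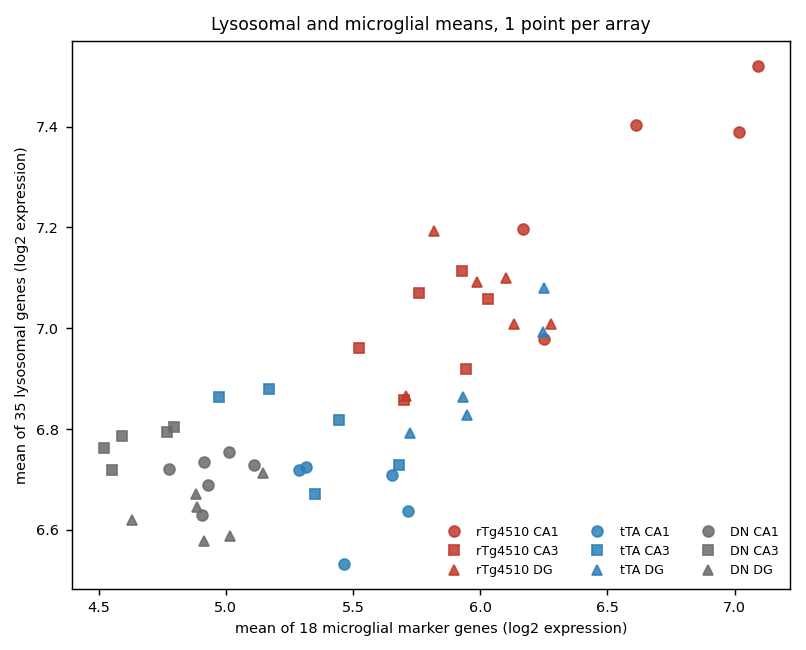
Mean log2 expression of the 35 lysosomal genes against the mean of 18 microglial markers, 1 point for each of the 49 arrays, with colour for genotype and shape for subfield. DN arrays reach at most 5.15 in the microglial mean and 6.80 in the lysosomal mean, rTg4510 CA1 arrays reach the upper right, and tTA DG arrays lie beside the rTg4510 DG arrays.

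Other genes of the lysosome were taken from lists that leave out the 35. Of 19 further lysosomal hydrolases and activators 4 were higher in rTg4510 CA1 than in tTA CA1 and 0 lower (median 0.20), against 6.01% and 4.62% of all probe sets. Ctss, cathepsin S, which trims the invariant chain in antigen-presenting cells, averaged 11.24 in rTg4510 and 9.47 in tTA, a difference of 1.76 (adjusted p = 2.64e-05). Ctse, cathepsin E (1.62), the ribonuclease Rnaset2b (1.11) and Fuca2, an alpha-fucosidase (0.62, adjusted p = 0.0466), completed the 4.

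Of 17 further membrane genes 3 were higher and 0 lower, namely Cd164, a sialomucin (0.74), the metal transporter Slc11a1 (0.63) and Laptm4b (0.47), while Cd68, the macrophage relative of Lamp1, gave 0.87 (adjusted p = 0.053). Shares over all probe sets were 6.01% higher and 4.62% lower, and 12% and 12.5% at an unadjusted p below 0.05. Of 16 subunits and accessory proteins of the V-ATPase, the proton pump, 0 were called by limma (6 higher and 1 lower at an unadjusted p below 0.05), the lowest adjusted p being that of Atp6v0b (−0.26, adjusted p = 0.06). Of 5 sorting genes only Sumf1, which activates the sulfatases, was called (0.44, adjusted p = 0.0063), and Gnptab, which starts the mannose 6-phosphate tag, gave 0.45 (adjusted p = 0.248). Of 7 regulators of lysosomal transcription and nutrient sensing 0 were called by limma, and 0 at an unadjusted p below 0.05 either, with Tfeb at −0.15 and the related factors Tfec and Mitf at −0.22 and −0.14.

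Among the cystatins, inhibitors of cysteine cathepsins, Cst3 (0.64, adjusted p = 0.00387) and Cst7 (0.43, adjusted p = 0.0225) were higher in rTg4510 CA1, and Cstb (0.16) and Cst6 (−0.01) were not called. Of 16 autophagy genes 1 was higher, near the 6.01% of all probe sets, and 3 were lower, against 4.62%. The autophagy receptor Nbr1 was higher by 0.39, while Becn1, a subunit of the lipid kinase complex that acts early in autophagosome formation, gave −0.45, Map1lc3a, which coats their membrane, −0.51 and Atg16l1, which helps to attach that coat, −0.54.

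The promoters of the set were examined because many of its genes moved together in CA1. Of the 39 genes 35 had a promoter in RefSeq (GRCm38.p6; 250 bases before to 50 after the transcription start), and CACGTG, the E-box that reads the same on both strands, was in 14 of these 35 (40%), against 8.09% of 27025 genes. The longer palindrome TCACGTGA, which contains the E-box, was in 5 of the 35 (14.3%), against 1.12% of all. The 3 pieces of 60 bases that follow hold the longer palindrome and belong to genes that were not called in CA1, with TCACGTGA or CACGTG in capitals.
Cln3 (chr7:126583325-126583384, minus strand): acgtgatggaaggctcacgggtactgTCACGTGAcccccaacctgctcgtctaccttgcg
Mcoln1 (chr8:3500447-3500506, plus strand): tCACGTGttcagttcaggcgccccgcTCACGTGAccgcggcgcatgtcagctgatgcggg
Gla (chrX:134601196-134601255, minus strand): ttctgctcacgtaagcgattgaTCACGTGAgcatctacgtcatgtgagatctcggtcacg
For comparison, the whole promoters of Ctsa, Ctsd and Lamp1, called higher in rTg4510 CA1 and holding such elements, and of Man2b1 and Lamp2, 2 of the genes with the largest differences there and with neither element, are shown 5′ to 3′ on the gene's strand.
Ctsa (chr2:164833523-164833822, plus strand): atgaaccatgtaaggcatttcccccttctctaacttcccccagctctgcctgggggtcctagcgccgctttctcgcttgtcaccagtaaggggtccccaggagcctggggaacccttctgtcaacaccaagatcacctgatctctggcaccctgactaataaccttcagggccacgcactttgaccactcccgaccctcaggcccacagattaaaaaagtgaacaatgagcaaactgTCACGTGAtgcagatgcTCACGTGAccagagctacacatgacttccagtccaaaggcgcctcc
Ctsd (chr7:142387778-142388077, minus strand): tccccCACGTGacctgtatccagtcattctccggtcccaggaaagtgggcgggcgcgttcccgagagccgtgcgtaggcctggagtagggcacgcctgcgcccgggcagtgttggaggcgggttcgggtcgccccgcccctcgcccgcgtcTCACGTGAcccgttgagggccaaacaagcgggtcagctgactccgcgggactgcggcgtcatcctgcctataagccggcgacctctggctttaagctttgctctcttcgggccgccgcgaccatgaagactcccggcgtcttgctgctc
Lamp1 (chr8:13158911-13159210, plus strand): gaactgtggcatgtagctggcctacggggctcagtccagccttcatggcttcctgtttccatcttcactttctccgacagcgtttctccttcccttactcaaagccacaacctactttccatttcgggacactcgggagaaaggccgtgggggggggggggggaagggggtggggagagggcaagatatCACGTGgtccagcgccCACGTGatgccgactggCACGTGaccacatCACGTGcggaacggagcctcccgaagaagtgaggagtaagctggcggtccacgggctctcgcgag
Man2b1 (chr8:85083019-85083318, plus strand): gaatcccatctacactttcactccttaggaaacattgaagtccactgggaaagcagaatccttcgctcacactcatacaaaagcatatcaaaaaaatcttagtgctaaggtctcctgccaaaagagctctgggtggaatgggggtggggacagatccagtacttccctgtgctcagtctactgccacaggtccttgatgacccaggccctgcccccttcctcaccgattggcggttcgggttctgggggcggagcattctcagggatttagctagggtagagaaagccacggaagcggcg
Lamp2 (chrX:38456411-38456710, minus strand): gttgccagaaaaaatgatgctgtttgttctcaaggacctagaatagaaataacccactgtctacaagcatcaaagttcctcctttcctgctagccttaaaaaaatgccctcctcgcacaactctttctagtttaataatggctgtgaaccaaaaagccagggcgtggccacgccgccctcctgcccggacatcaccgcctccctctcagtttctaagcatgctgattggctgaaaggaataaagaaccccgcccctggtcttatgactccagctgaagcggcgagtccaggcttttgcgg
In Ctsa the 2 palindromes began their E-box at positions −12 and 5 from the start, in Ctsd 1 lay at −98 with an E-box at −245, and Lamp1 held 4 E-boxes between −61 and −15. The 60-base pieces of Cln3 and Gla each cut through a further element, left in small letters at the edge. These were an E-box at −149 in Cln3 and a palindrome in Gla with its E-box at −194.

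Among the 31 measured genes with a promoter, 5 of the 14 with CACGTG and 11 of the 17 without it were called higher in rTg4510 CA1, with median differences of 0.42 and 0.76. For TCACGTGA the counts were 2 of 5 with it and 14 of 26 without it, at medians of 0.17 and 0.58. These matches are a description of the letters in this window.

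In CA3 the difference between rTg4510 and tTA was not called for any of the 35 genes by limma, nor by the least significant difference test, beside a background of 0.641% higher and 0.491% lower. At an unadjusted p below 0.05 there were 8 higher and 0 lower, against 7.52% and 7.3% of all probe sets, and the median difference was 0.13, against −0.02 over all probe sets. The model of all 49 arrays with mouse as a block called 2 higher, against 1.02%. Ctsh came closest, at 3.52, 4.15 and 4.80 (lowest, median, highest) in rTg4510 CA3 against 3.60, 3.40, 3.05, 3.53 and 3.35 in tTA CA3, a difference of 0.77 ± 0.19 (adjusted p = 0.0664). It passed the threshold without the array of rTg4510 mouse4549, the only rTg4510 array inside the tTA range. Man2b1 had the largest difference in CA3, 0.92 ± 0.26 (adjusted p = 0.103), and was called by the 49-array model.

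In DG the count was 0 as well, beside a background of 0.446% higher and 0.336% lower, with 5 higher and 1 lower at an unadjusted p below 0.05 (8.04% and 7.08% of all probe sets), 0 by the least significant difference test and 2 higher by the 49-array model (1.6% of all probe sets). The median was 0.09, against −0.01 over all probe sets. Man2b1 again had the largest difference, at 5.88, 6.94 and 7.77 (lowest, median, highest) in rTg4510 DG against 5.26, 6.02, 4.98, 6.47 and 6.50 in tTA DG. The tTA arrays of DG were widely spread, and 1 rTg4510 array, of mouse4549, lay inside their range. The difference was 1.04 ± 0.30 (adjusted p = 0.0958), and without the array of mouse4549 the count of calls in DG was 2, Man2b1 among them. Galc, dim, differed by 0.84 ± 0.27 (adjusted p = 0.135). Of the 18 microglial markers 3 were higher in CA3 (median 0.33) and 0 were called in DG (median −0.08, with 2 higher at an unadjusted p below 0.05), and their part in the lysosomal values was not tested.

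Whether the rTg4510 minus tTA difference itself was larger in CA1 than in CA3 was tested in the model of 49 arrays with the mouse as a random block. It was larger in CA1 for 9 genes and smaller for 0, against 2.19% and 1.69% of all probe sets, with a median of 0.43 over the 35 genes and −0.01 over all probe sets. The 9 were Ctsz, Gusb, Arsa, Asah1, Npc1, Npc2, Lamp2, Scarb2 and Grn. Lamp2 had the largest excess, 1.13 ± 0.23 (adjusted p = 0.00397), followed by Gusb with 0.99 ± 0.29 (adjusted p = 0.0401). Grn had 0.67 ± 0.16 (adjusted p = 0.0133) and Asah1 0.70 ± 0.17 (adjusted p = 0.0153). These 2 and Lamp2 were the 3 calls kept whichever array of the compared groups was left out. The count rested on single arrays. It fell to 3 without rTg4510 CA1 mouse4535, to 4 without rTg4510 CA1 mouse4666 or tTA CA3 mouse4592, and to 5 without rTg4510 CA1 mouse4653, rTg4510 CA3 mouse4549, tTA CA1 mouse4570 or mouse4637, or tTA CA3 mouse4637.

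Against DG the difference was larger in CA1 for 12 genes and smaller for 0 (3.2% and 2.25% of all probe sets), with a median of 0.48 against −0.02. Lamp2 led again, with 1.37 ± 0.23 (adjusted p = 0.0003), then Ctsa with 1.32 ± 0.30 (adjusted p = 0.00452). The proteases Ctsh (1.298 ± 0.395), Ctsc (1.24 ± 0.38), Ctsd (0.92 ± 0.21), Ctsz (0.91 ± 0.22) and Ctsl (0.59 ± 0.17) were among the 12, with Npc2, Lipa, Lamp1, Scarb2 and Grn. The 7 calls kept without any 1 array were those of Ctsa, Ctsd, Ctsz, Lamp1, Lamp2, Npc2 and Scarb2, and the count was 7 without rTg4510 CA1 mouse4653. Ctsc and Ctsh were each lost without any 1 of 13 of the 21 arrays, and 1 gene was smaller in CA1 without tTA CA1 mouse4592. Man2b1, which the fits of single subfields called against tTA in CA1 and not in CA3 or DG, and which the 49-array model called in CA3 and DG too, did not pass this test, with 0.73 ± 0.34 against DG (adjusted p = 0.237) and 0.85 ± 0.34 against CA3 (adjusted p = 0.165). Between CA3 and DG 0 of the 35 differed, with 1 larger and 1 smaller at an unadjusted p below 0.05 (3.73% and 4.35% of all probe sets), and over all probe sets 0.00884% were called larger and 0% smaller. The model without the mouse as a block also called 0. Microglial markers passed the same tests for 3 of 18 genes in CA1 against CA3 and 13 of 18 in CA1 against DG.

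Setting tTA against DN mice asks what the transactivator and its insertion go with, and it shares the tTA arrays with the comparison above, so the values stand side by side and are not independent. In DG 11 of the 35 genes were higher in tTA than in DN mice and 2 were lower, against 7.22% and 9.44% of all probe sets, with a median of 0.26 against 0.03 over all probe sets. The 11 were the proteases Ctsb, Ctsc, Ctsd, Ctsh and Ctsz, the glycosidase Hexa, the lipid-handling Npc2 and Smpd1, and the membrane proteins Lamp1, Lamp2 and Scarb2. The 2 lower genes were Gaa and Mcoln1. The other Mcoln1 probe set gave −0.17 and was not called (limma adjusted p = 0.686), and the other Lamp2 probe sets gave 0.47, called, and 0.63, not called.

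Npc2 read 8.74, 8.68, 9.09, 8.82 and 8.90 in tTA DG against 7.63, 7.94 and 8.09 (lowest, median, highest) in DN DG, a difference of 0.95 ± 0.10 (adjusted p = 6.4e-06). The rTg4510 arrays of DG, 8.77 to 9.002, lay within the range of the tTA arrays, and the difference between these was 0.02 ± 0.10. Hexa read 9.05, 9.31, 9.34, 9.39 and 9.45 in tTA DG against 8.36, 8.70 and 8.88 in DN DG, with no overlap and a difference of 0.65 ± 0.12 (adjusted p = 0.00196). Ctsd read 7.33, 8.15, 8.08, 8.23 and 8.04 in tTA DG against 6.90, 7.11 and 7.51 in DN DG. Only the tTA array of mouse4570 lay inside the DN range, and the difference was 0.84 ± 0.16 (adjusted p = 0.00165).

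Ctsc read 6.41, 5.59, 6.92, 6.16 and 6.13 in tTA DG against 4.32, 4.77 and 5.52 in DN DG, a difference of 1.43 ± 0.29 (adjusted p = 0.00261), the largest of this comparison. The groups did not overlap, and neither did those of Ctsb, Ctsz, Lamp2 and Scarb2, 7 genes higher without overlap in all. Gaa and Mcoln1 were lower without overlap, and over all probe sets 4.39% were higher and 5.9% lower without overlap. Ctsh, dim, differed by 1.26 ± 0.31 (adjusted p = 0.00947), Ctsz by 0.77 ± 0.18 (adjusted p = 0.00692), Lamp2 by 0.68 ± 0.17 (adjusted p = 0.00931) and Scarb2 by 0.49 ± 0.12 (adjusted p = 0.00841). The smallest called differences, of Lamp1 (0.36), Ctsb (0.36) and Smpd1 (0.28), depended on single arrays. Lamp1 and Ctsb lost their calls without any 1 of DN mouse4866, mouse4883 and mouse4886 and tTA mouse4580, mouse4626 and mouse4637, Smpd1 lost its call without any array other than those of DN mouse4886 and tTA mouse4637, and the other Ctsb probe sets gave −0.22, −0.15 and 0.29, not called.

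In the same comparison 11 of 18 microglial markers were higher in tTA DG (median 1.13) and 10 of 12 astrocyte markers higher and 1 lower. The mean of the microglial list ran from 5.72 to 6.25 in tTA DG and from 4.63 to 5.15 in DN DG, and in rTg4510 DG from 5.71 to 6.28. Dentate granule markers were 1 higher and 3 lower of 6. The log2 level of the 3′ Actb probe set minus that of the 5′ one ran from −0.79 to −0.48 in tTA DG and from −0.51 to −0.09 in DN DG, and with this ratio as a covariate 3 members were higher (Npc2, Ctsc and Ctsd) and 0 lower, against 2.19% and 3.4% of all probe sets, while the median difference of the 35 genes was 0.25. The mouse numbers of the DN mice lay apart from those of the other genotypes, and the part of these features in the result was not tested.

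In CA1 1 gene was higher in tTA than in DN mice and 3 were lower, against 7.31% and 8.85% of all probe sets, with a median of −0.09 against 0.05. The higher one was Npc2, described above (0.61 ± 0.17, adjusted p = 0.0226). These counts rest on the brightest probe sets. The other Ctsb probe sets gave −0.95 and −0.61, both called lower, and −0.39, not called, where the brightest gave −0.14, not called. The other Grn probe set gave −0.50, called lower, where the brightest gave 0.02, not called. Gaa read 7.52, 7.15, 6.43, 7.32 and 7.04 in tTA CA1 against 8.37, 8.62 and 8.74 (lowest, median, highest) in DN CA1. All tTA arrays were below all DN arrays, the difference was −1.50 ± 0.18 (adjusted p = 8.93e-05), and the 5 rTg4510 arrays, at 7.39, 7.24, 7.89, 8.14 and 7.53, also lay below every DN array.

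Arsa read 4.82, 5.14, 4.52, 5.07 and 4.77 in tTA CA1 against 5.21, 5.36 and 5.52 in DN CA1, a difference of −0.50 ± 0.15 (adjusted p = 0.0368), while the rTg4510 arrays, at 5.67, 4.95, 5.67, 6.00 and 5.36, spanned the DN range. Ctsa differed by −0.63 ± 0.21 (adjusted p = 0.0477), also without overlap between tTA and DN. So in Arsa and Ctsa the tTA arrays were lower than those of both other genotypes, apart from the rTg4510 array of mouse4549. Gaa alone of the 4 was called whichever tTA or DN array of CA1 was left out. Arsa lost its call without any of 7 arrays (DN mouse4806, mouse4866, mouse4883 and mouse4886, tTA mouse4570, mouse4592 and mouse4637), Ctsa without any of 8 (DN mouse4806, mouse4825, mouse4866, mouse4883 and mouse4886, tTA mouse4580, mouse4592 and mouse4626), and Npc2 without DN mouse4866 or tTA mouse4592. With the Actb ratio as a covariate, which ran from −0.92 to −0.47 in tTA CA1 and from −0.59 to −0.06 in DN CA1, Gaa was the 1 lower gene and 0 were higher, against 2.52% lower and 1.3% higher over all probe sets, and the median difference of the 35 genes was −0.02. The mean of the microglial list ran from 5.29 to 5.72 in tTA CA1 and from 4.78 to 5.11 in DN CA1. The astrocyte mean ran from 7.58 to 8.12 in tTA CA1 and from 7.23 to 7.78 in DN CA1. The mean of the 35 lysosomal genes was 6.66 in tTA CA1 and 6.71 in DN CA1. The part of these features in the result was not tested.

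In CA3 2 genes were higher in tTA than in DN mice, Ctsz (0.66 ± 0.16, adjusted p = 0.0154) and Npc2 (0.49 ± 0.13, adjusted p = 0.0305), and 0 were lower, against 4.12% and 4.97% of all probe sets, with 2 lower at an unadjusted p below 0.05 (13.1% of all probe sets) and 0 lower by the least significant difference test. Ctsz read 8.10, 8.53, 8.85, 8.56 and 8.54 in tTA CA3 and 7.64, 8.18, 7.91, 7.75 and 7.79 in DN CA3, and Npc2 read 8.54, 8.04, 8.81, 8.29 and 8.65 in tTA CA3 and 7.76, 8.22, 7.77, 8.01 and 8.13 in DN CA3. For Ctsz 1 array of each group lay inside the other's range, and for Npc2 1 tTA array and 2 DN arrays did. The Npc2 call was lost without any 1 of 6 arrays (DN mouse4797, mouse4866 and mouse4883, tTA mouse4570, mouse4592 and mouse4637). The other Ctsz probe sets gave 0.28 and 0.36 and the other Npc2 probe set 0.45, none of them called. A Ctsb probe set other than the brightest was called lower (−0.72, limma adjusted p = 0.00637). By the brightest probe sets, Npc2 was the only member called in all 3 subfields. In the same comparison 10 of 18 microglial markers were higher in tTA CA3 (median 0.70) and 0 lower, as were 8 of 12 astrocyte markers. The mean of the microglial list ran from 4.97 to 5.68 in tTA CA3 and from 4.52 to 4.80 in DN CA3, the astrocyte mean from 7.74 to 8.33 in tTA CA3 and from 7.22 to 7.63 in DN CA3, and of 4 CA3 pyramidal markers 2 were lower in tTA. The Actb ratio ran from −0.855 to −0.42 in tTA CA3 and from −0.58 to −0.17 in DN CA3, with it as a covariate 1 member, Ctsz, was higher, against 2.58% of all probe sets, and the part of these features in the result was not tested.

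**Figure D5:**
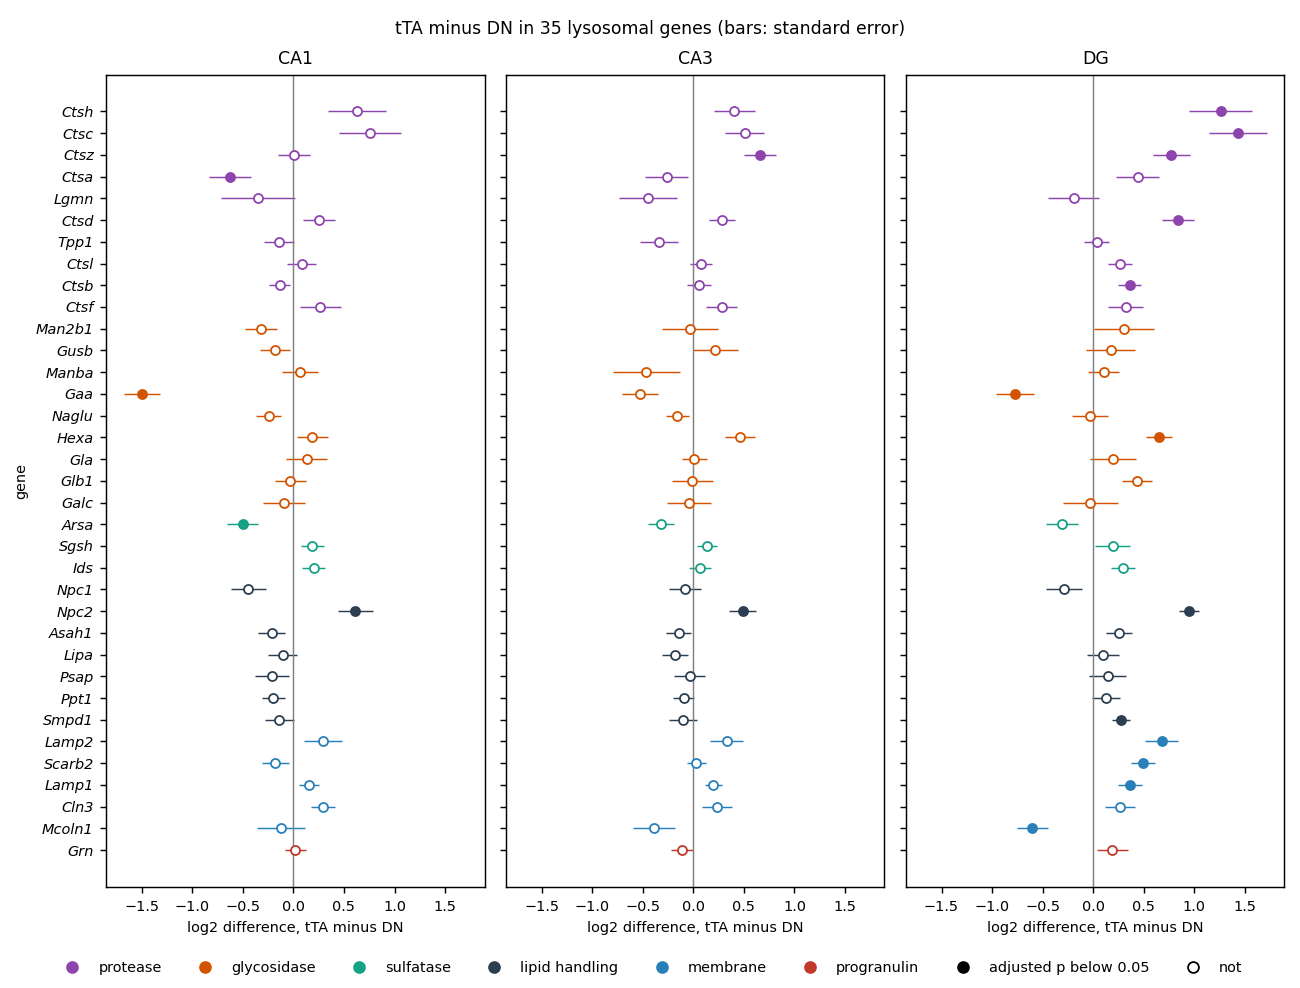
Difference in log2 expression, tTA minus DN, for the 35 lysosomal genes in CA1, CA3 and DG (points, with the standard error as bars), in the gene order and colours of the plot of rTg4510 minus tTA. Filled points (adjusted p below 0.05) number 13 in the DG panel, 4 in the CA1 panel and 2 in the CA3 panel, with Gaa left of 0 in each.

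The tTA minus DN difference was larger in DG than in CA1 for 2 genes, Scarb2 (0.67 ± 0.15, adjusted p = 0.00937) and Ctsa (1.06 ± 0.29, adjusted p = 0.044), and smaller for 0, against 1.06% and 0.597% of all probe sets. At an unadjusted p below 0.05 there were 10 larger and 0 smaller, against 5.91% and 6.47% of all probe sets, and the median was 0.32 against −0.02. Scarb2 was called whichever array was left out, and Ctsa was lost without any 1 of 16 of the 22 arrays, the exceptions being DN mouse4797 and mouse4883 and tTA mouse4570 and mouse4637 in CA1, DN mouse4797 in DG and tTA mouse4580 in DG. Without the last of these the count was 4. Between DG and CA3 0 were called, against 0.57% larger and 0.672% smaller over all probe sets, with 9 larger and 0 smaller at an unadjusted p below 0.05 (4.9% and 5.06% of all probe sets) and 0 in the model without the mouse as a block. 

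Set against DN mice, which differ from rTg4510 mice by both transgenes, 18 genes were higher in rTg4510 CA1 and 1, Gaa, was lower (−0.95 ± 0.18, adjusted p = 0.00118), against 11.1% and 12.3% of all probe sets. The largest were Ctsh (2.14 ± 0.28), Ctsc (2.10 ± 0.30), Lamp2 (1.76 ± 0.19) and Npc2 (1.45 ± 0.17). Of the 20 genes higher against tTA, 16 were higher against DN too (16 of 18 there), the other 4 being Arsa, Ctsa, Ctsb and Naglu, and Ctsl and Sgsh were called against DN alone. The 2 comparisons share the rTg4510 arrays. Against DN in CA1 the other Sgsh probe set, dim, gave −0.12 and was not called. The other Lipa probe sets gave 0.18 and, in a dim one, 0.30, neither called. Ctsl and Lipa lost their calls against DN without rTg4510 mouse4653, Scarb2 without rTg4510 mouse4535, mouse4653 or mouse4666, and Npc1 without any of 6 arrays (DN mouse4797, mouse4825, mouse4866 and mouse4883, rTg4510 mouse4535 and mouse4653).

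In CA3 6 genes were higher in rTg4510 than in DN mice and 0 lower, against 1.91% and 1.2% of all probe sets, with 1 lower at an unadjusted p below 0.05 (8.71% of all probe sets) and 0 by the least significant difference test. They were Ctsh (1.17 ± 0.19), Ctsz (1.05 ± 0.15), Ctsc (1.01 ± 0.18), Ctsd (0.69 ± 0.12), Lamp2 (0.66 ± 0.16) and Npc2 (0.62 ± 0.13). Npc2 lost its call without DN mouse4866, and Lamp2 without any of 7 arrays (DN mouse4797, mouse4866, mouse4883 and mouse4886, rTg4510 mouse4535, mouse4549 and mouse4600). The other Lamp2 probe sets gave 0.69 and 0.40 in CA3, neither called. In DG 11 were higher and 0 lower, against 4.1% and 4.76%, with 1 lower at an unadjusted p below 0.05 (11.8% of all probe sets) and 0 by the least significant difference test. The 11 were Asah1, Ctsc, Ctsd, Ctsh, Ctsz, Grn, Hexa, Lamp2, Man2b1, Npc2 and Scarb2, and 8 of them were higher in tTA than in DN mice as well. The 3 others were Man2b1 (1.34 ± 0.28 against DN, adjusted p = 0.00625), Asah1 (0.53 ± 0.12) and Grn (0.50 ± 0.15). The other Grn probe set gave 0.46 and was not called (limma adjusted p = 0.0721). For Lamp2 the other probe sets gave 0.84, called, and 0.72, not called. A Ctsb probe set other than the brightest was called higher (0.50). Grn and Hexa each lost their call without any of 8 of the 12 arrays, among them those of 5 rTg4510 mice (all but mouse4621), and Gaa (−0.56 ± 0.18, adjusted p = 0.0617) was called lower without rTg4510 mouse4600 or mouse4653. Microglial markers higher against DN were 16 of 18 in rTg4510 CA1, 12 in CA3 and 10 in DG, and the Actb ratio as a covariate left 7 members higher in DG, against 2.13% of all probe sets, with a median difference of 0.300 over the 35 genes, against 0.315 without it.

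Between the subfields of DN mice the lysosomal genes were compared in the model of 49 arrays. CA1 was higher than CA3 for 2 genes and lower for 4 (6.26% and 6.64% of all probe sets), CA1 was higher than DG for 5 and lower for 2 (8.89% and 8.59%), and CA3 was higher than DG for 9 and lower for 1 (11.3% and 10.4%). The medians were −0.12, 0.05 and 0.16, against −0.02, −0.01 and 0.01 over all probe sets. Gaa had the widest range of subfield means, with 8.59 in CA1, 7.68 in CA3 and 7.65 in DG. CA1 stood above both, by 0.90 ± 0.17 and 0.94 ± 0.17 (adjusted p = 0.000135 and 2.22e-05), while the difference between CA3 and DG was 0.04 ± 0.17, within its error.

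Ctsz averaged 8.67 in CA1, 8.46 in DG and 7.86 in CA3, where CA3 was lower than CA1 (0.82 ± 0.16, adjusted p = 9.39e-05) and than DG (−0.61 ± 0.15, adjusted p = 0.00245) and CA1 minus DG was 0.21 ± 0.15, not called. Lamp2 was lower in CA1 than in DG (−0.66 ± 0.15, adjusted p = 0.00128), with CA3 between them. Ids, the iduronate sulfatase, stood highest in CA3, with CA1 minus CA3 at −0.57 ± 0.10 (adjusted p = 5.39e-05) and CA3 minus DG at 0.56 ± 0.10 (adjusted p = 4.3e-05). Grn was lower in CA1 than in CA3 (−0.41 ± 0.11, adjusted p = 0.00947), and Ctsb was higher in both pyramidal fields than in DG, by 0.50 ± 0.10 and 0.38 ± 0.10. The count lower in CA1 than in CA3 was 2 without DN CA1 mouse4797 or DN CA3 mouse4883, and the count lower in CA1 than in DG was 1 without DN CA1 mouse4806 or DN DG mouse4883.

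Over the 49 arrays, after the mean of each of the 9 groups was taken away, the genes outside the set whose values ran most like the mean of the 35 were H2-K1 (r = 0.691), Clybl (r = 0.691), Naxe (r = 0.671), Pgm1 (r = 0.655) and Glud1 (r = 0.65). These correlations are over arrays that share mice and normalization and are given as a description.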

How the data were processed

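Laser-captured CA1, CA3 and DG of rTg4510, tTA and DN mice were profiled on Affymetrix HT-MG-430A arrays after amplification with Ovation Pico WTA, as the study's methods describe. The deposited values are log2 expression, normalized by the authors with RMA (version not given in the sources used here). Of 22716 probe sets, 90 controls were left out and 22626 were tested, of which 18003 had 1 gene symbol, 287 several and 4336 none listed. No columns lacked a sample. Groups came from the sample titles. Array number limits the precision.

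Differences were tested with limma 3.58.1 in R 4.3.3, 1 model of 3 genotypes per subfield, with Benjamini-Hochberg adjustment over all probe sets. Comparisons across subfields used 1 model of 49 arrays with the mouse as a random block, since the number names the animal (within-mouse correlation 0.117). Each gene's brightest probe set was used. Scripts were tested on simulated data.

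Per-array values are given for the 8 largest called differences of rTg4510 against tTA in CA1, up to 4 called genes of lowest adjusted p in the other rTg4510 against tTA and tTA against DN comparisons, and the 3 brightest genes. Of each other list, up to 4 genes of lowest adjusted p are named. Other genes given with values, Ctsh and Man2b1 in CA3 and DG among them, were chosen after their values were seen. The members and lists were chosen with earlier results of these data known. Alternatives were quantile normalization again, no dim probe sets, the mean of a gene's probe sets, array weights, only the compared genotypes, the methods' least significant difference test on log2 and anti-log values, the Actb 3′ to 5′ ratio as a covariate, the block, and leaving out each array. Only arrays of the groups compared were left out in this way. The labels give no batch, and a probe for the human tau transgene was not used here.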

Additional observations from a re-analysis of the deposited data

Results flagged for a closer look

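In CA1 of rTg4510 mice the array of mouse4549 stood apart from the other 4, which lay close together, for Ctsa (5.68, others 6.60 to 6.81) and Ctsb (9.77, others 10.26 to 10.41). In tTA CA1 mouse4580 was low for Ctsd (7.40, others 7.69 to 7.81). In CA3 tTA mouse4570 was high for Grn (11.08, others 10.66 to 10.73), DN mouse4886 was high for Ctsh (3.54, others 2.77 to 2.93) and DN mouse4883 was high for Ctsc (5.64, others 4.76 to 4.86). In DG rTg4510 mouse4621 was low for Ctsc (5.08, others 6.25 to 6.86) and for Grn (10.90, others 11.21 to 11.39), and rTg4510 mouse4653 was high for Gusb (5.08, others 4.05 to 4.28). In the same subfield tTA mouse4570 was low for Ctsd (7.33, others 8.04 to 8.23) and tTA mouse4580 for Grn (10.29, others 10.96 to 11.22). These are 11 of 144 groups of values checked, and Dixon's 95% critical value flags about 5% by chance.

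The rTg4510 minus tTA difference was larger in CA1 than in CA3 for 9 genes by the interaction test, with excess differences of 0.76 for Ctsz, 0.99 for Gusb, 0.69 for Arsa, 0.70 for Asah1, 0.81 for Npc1, 0.70 for Npc2, 1.13 for Lamp2, 0.57 for Scarb2 and 0.67 for Grn. It was larger in CA1 than in DG for 12 genes, with excess differences of 1.32 for Ctsa, 1.24 for Ctsc, 0.92 for Ctsd, 1.298 for Ctsh, 0.59 for Ctsl, 0.91 for Ctsz, 0.73 for Lipa, 0.82 for Npc2, 0.57 for Lamp1, 1.37 for Lamp2, 0.61 for Scarb2 and 0.56 for Grn. Ctsz, Npc2, Lamp2, Scarb2 and Grn passed both tests, which share the CA1 arrays. The tTA minus DN difference was larger in DG than in CA1 for Ctsa (1.06) and Scarb2 (0.67).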

How the results depend on the processing

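No direction of a called gene reversed under any alternative on log2 values. For rTg4510 against tTA in CA1, 13 members were called higher with only the compared genotypes in the model and 13 with the Actb ratio as a covariate, against 20. Higher calls over all 22626 probe sets were 648 and 753, against 1360. For tTA against DN in CA1, members called higher were 2 with array weights, 0 by the least significant difference test on anti-log values, 0 with the Actb ratio and 2 in the 49-array model with a replicate block, against 1, and members called lower were 1 after quantile normalization again, 1 by that test on log2 values, 1 on anti-log values and 1 with the Actb ratio, against 3. In the same order, all probe sets gave 2013, 1468, 295 and 2237 higher, against 1653, and 1566, 1714, 1895 and 571 lower, against 2003. For tTA against DN in CA3, 1 was higher with the mean of a gene's probe sets, 0 by the anti-log test and 1 with the Actb ratio, against 2, and 1 was lower without dim probe sets and 1 with the mean of probe sets, against 0. All probe sets gave 784 (of 16430), 765 and 584 higher, against 932, and 1294 (of 11313) and 874 (of 16430) lower, against 1125. For tTA against DN in DG, 3 were higher with the Actb ratio, against 11, and lower ones were 1 with the mean of probe sets and 0 with the Actb ratio, against 2. All probe sets gave 495 higher, against 1633, and 1627 (of 16430) and 770 lower, against 2136. For rTg4510 against DN in DG, 7 were higher with the Actb ratio, against 11, and 1 was lower without dim probe sets, with array weights and with the replicate block, against 0. Here all probe sets gave 483 higher, against 928, and 1084 (of 11313), 1452 and 1200 lower, against 1077. For rTg4510 against tTA the replicate block gave 2 higher in CA3 and 2 in DG, against 0. With the block, higher calls over all probe sets were 230 in CA3 and 362 in DG, against 145 and 101. The Actb covariate also lowered the calls over all probe sets. The cause of the other changes was not tested.

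The larger differences in CA1 than in CA3 numbered 5 with no replicate block and 5 with array weights, against 9. Such calls over all 22626 probe sets numbered 313 and 400, against 496. For tTA against DN in DG over CA1 the count was 1 with no replicate block, 4 without dim probe sets and 4 with array weights, against 2, and in DG over CA3 it was 1 with the mean of probe sets, against 0. Larger ones over all probe sets were 163, 241 (of 11313) and 322, against 239, and 124 (of 16430), against 129. In DN mice, CA1 was lower than CA3 for 7 members without dim probe sets, 7 with the mean of probe sets and 9 with array weights, against 4. Lower calls over all probe sets were 1396 of 11313, 1208 of 16430 and 2733 of 22626, against 1503 of 22626. CA1 was higher than DG for 8 with array weights, against 5, and lower for 0 with the mean of probe sets and 4 with array weights, against 2. All probe sets gave 2940 higher, against 2012, and 1509 (of 16430) and 2878 lower, against 1944.

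With each array left out in turn, counts ran from 0 to 1 higher and from 1 to 3 lower for tTA against DN in CA1, from 1 to 2 higher for tTA against DN in CA3, from 0 to 1 higher for rTg4510 against tTA in CA3, from 0 to 2 higher for rTg4510 against tTA in DG and from 0 to 1 lower for rTg4510 against DN in DG. They ran from 3 to 12 larger in CA1 than in CA3, from 7 to 14 larger and from 0 to 1 smaller in CA1 than in DG, and from 1 to 4 for tTA against DN in DG over CA1. In DN mice they ran from 2 to 5 lower in CA1 than in CA3 and from 1 to 2 lower in CA1 than in DG. Genes near background are limited by signal: 8 of the 35 were dim, and their differences are the least certain in size. The leave-one-out fits across subfields and the alternatives for tTA against DN across subfields were added after the data had been seen.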
